A study of Mus musculus with 6 samples.

Results

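The Notch pathway genes described here are 10 of the 21639 gene entries in an RNA-Seq table of mouse embryonic stem cell (ESC) differentiation. They were chosen by name, as the 4 Notch receptors (*Notch1*, *Notch2*, *Notch3*, *Notch4*), 3 ligands (*Dll1*, *Dll3*, *Jag1*), the DNA-binding effector *Rbpj* and 2 target genes (*Hes1*, *Hey1*), and each symbol matched 1 entry. Expression was measured in 3 lines, both as ESCs (D0), plated without feeder fibroblasts for the last passage, and as embryoid bodies (EBs, D3) grown in suspension without leukemia inhibitory factor, and each of the 6 conditions has a single library. H2A.ZWT cells carry wild-type H2A.Z fused to YFP under doxycycline control, and H2A.ZAP3 cells carry the same construct with the acidic patch changes G92N, D97N and S98K. Both transgenes sit in KH2 ESCs under a CMV promoter, the YFP-positive cells were sorted after induction with 1 µg/ml doxycycline, and lentiviral short hairpins that target the UTR of the endogenous transcript were put into these transgenic cells. H2A.ZKD is the name for cells depleted with the hairpins, and the labels list the strain of all 6 samples as V6.5. Whether doxycycline was kept on during EB formation, and which of the 2 hairpins was used for each library, is not stated in the sources used here.

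Notch signaling runs between touching cells. A ligand of the Delta or Jagged family on one cell pulls on a Notch receptor of its neighbour, the receptor is cut by an ADAM sheddase and then by γ-secretase, and its freed intracellular domain joins RBPJ and Mastermind-like coactivators on DNA. RBPJ recruits corepressors when no Notch domain is bound, and the Hes and Hey genes, which encode basic helix-loop-helix repressors, are its best known targets. In ESC cultures the pathway is known for its part in the exit from pluripotency and in the choice between neural and mesodermal fates.

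There are no replicates, so differences between libraries could not be tested and no p-values are printed, and the same holds for differences between the lines in how a gene changed. Levels are RPKM (reads per kilobase of transcript, scaled to the mapped reads of the library), and a gene was counted as changed when log2((RPKM + 0.001)/(RPKM + 0.001)) passed 1.5-fold, which is 0.58 on the log2 scale. Shares of changed genes refer to the 11842 entries whose mean level reached 1 RPKM, and all 10 Notch pathway genes were among them. The RPKM steps of genes with few reads gave depths of 17.7 to 28.2 M reads, with the H2A.ZAP3 library at D0 1.59 times as deep as H2A.ZWT at D0. Ranges in brackets after a log2 change are 95% Clopper-Pearson intervals of the ratio of estimated reads, and they cover counting error only. Where the change itself stands in brackets, its interval follows after a comma. *H2afz*, the gene the hairpins target, was at 279 RPKM in H2A.ZWT, 343 in the library labelled H2A.ZKD and 304 in H2A.ZAP3 at D0, while the D3 values were 258, 236 and 394 RPKM. It was not lower under the H2A.ZKD label at D0, reads of a transgene fall on the same exons, and that line is therefore called the library labelled H2A.ZKD. The ESC marker genes found in the table (7 of 8 listed, *Pou5f1* among them) were all above 1 RPKM in every library, with summed levels of 1010 to 1088 RPKM at D0 and 766 to 944 RPKM at D3. The sums hide differences between markers. In H2A.ZAP3 at D0 *Pou5f1* was at 540 RPKM against 421 RPKM in H2A.ZWT. *Klf2* (41.1 against 123), *Sox2* (110 against 191) and *Dppa3* (16.6 against 37.9) were lower there, and *Zfp42*, *Esrrb* and *Tbx3* slightly lower. *Zfp42*, *Esrrb*, *Klf2* and *Tbx3* were lower at D3 in every line, and *Pou5f1*, *Sox2* and *Dppa3* were not.

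The Notch pathway genes spanned 0.948 to 115 RPKM, and the upper part of their order was the same in all 6 libraries, *Rbpj* first, then *Hes1*, *Notch3*, *Notch1* and *Notch2*. *Rbpj* ranged from 63.4 to 115 RPKM over the 6 libraries, *Hes1* from 32.3 to 46.7 RPKM and *Notch3* from 13.3 to 27.7 RPKM, and these 3 ranges did not overlap each other. *Notch1* (5.23 to 8.84 RPKM) and *Notch2* (5.01 to 6.01 RPKM) overlapped in range, although *Notch1* was the higher of the pair within every library. *Jag1*, *Dll1*, *Notch4*, *Dll3* and *Hey1* lay between 0.948 and 5.33 RPKM, their ranges overlapped, and their order changed between libraries.

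**Figure D1:**
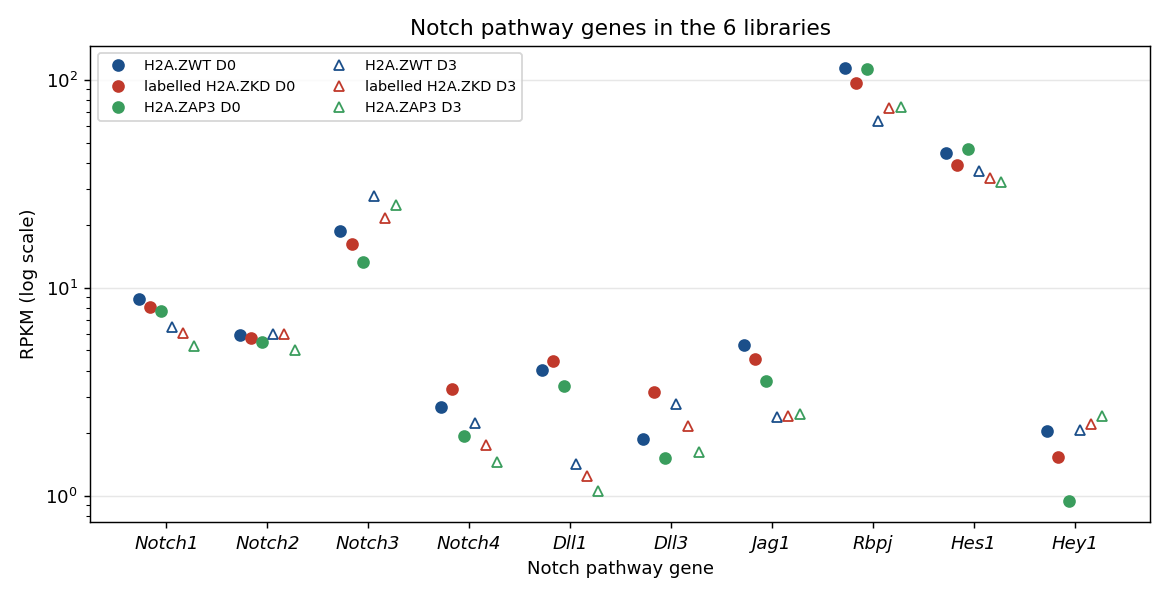
RPKM of the 10 Notch pathway genes (log axis) in each of the 6 libraries, with filled circles for D0 ESCs, open triangles for D3 EBs and 1 colour per line. *Rbpj* lies at 63.4 to 115 RPKM and *Hey1* at 0.948 to 2.41 RPKM, and the D3 values of *Dll1*, *Jag1* and *Rbpj* all lie below their D0 values.

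The comparison of D3 with D0 asks how the pathway changed as ESCs formed EBs. Set out by day over the 3 lines, *Dll1*, *Jag1*, *Rbpj*, *Notch1* and *Hes1* were lower at D3 than at D0 with no overlap between the days, and *Notch3* and *Hey1* were higher. This makes 5 of 10 lower and 2 of 10 higher, where 13.7% of the 11842 genes tested were lower and 19% higher without overlap. *Hey1* was counted by a narrow gap, with 2.04 RPKM as its highest D0 value and 2.07 RPKM as its lowest D3 value, both in H2A.ZWT. After division of each library by its median *Hey1* overlapped between the days. *Notch2*, *Notch4* and *Dll3* overlapped between the days. This way of counting was chosen after the data were seen, and the 3 lines are different cells and not replicates. Within single lines, the 1.5-fold threshold was passed downward by 3 genes in H2A.ZWT (*Dll1*, *Jag1*, *Rbpj*), against 9.53% of all genes tested, and by 3 in the library labelled H2A.ZKD (*Dll1*, *Jag1*, *Notch4*), against 8.86%. In H2A.ZAP3 2 genes fell (*Dll1*, *Rbpj*), against 11.5% of all genes, and 2 rose (*Notch3*, *Hey1*), against 10.8%. No Notch pathway gene rose past the threshold in H2A.ZWT or in the library labelled H2A.ZKD, where 11.4% and 11.5% of all genes did. The median log2 change of the 10 genes was −0.28 in H2A.ZWT, −0.40 in the library labelled H2A.ZKD and −0.47 in H2A.ZAP3, beside 0.04, 0.04 and 0.05 over all genes tested.

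The receptors are single-pass proteins that act both as the sensor of the ligand and, once cut, as the transcriptional activator. *Notch3* (chromosome 17, 32257838 to 32303797, − strand, with this and all further gene positions on mm9) was the most abundant receptor transcript, at 18.8, 16.3 and 13.3 RPKM at D0 and 27.7, 21.8 and 25.1 RPKM at D3 in H2A.ZWT, the library labelled H2A.ZKD and H2A.ZAP3, the order used for all values below. Every D3 value was above every D0 value. The log2 changes from D0 to D3 were 0.56 (0.49 to 0.63), 0.42 (0.35 to 0.49) and 0.91 (0.85 to 0.98), and the last one passed the threshold, with H2A.ZWT just under it. *Notch1* (chromosome 2, 26313422 to 26359342, − strand), the receptor most studied in early development, was lower at D3 in each line, at 8.84, 8.05 and 7.77 RPKM at D0 and 6.45, 6.06 and 5.23 RPKM at D3. On the log2 scale D3 over D0 was −0.45 (−0.57 to −0.35), −0.41 (−0.52 to −0.30) and −0.57 (−0.68 to −0.46). None of these passed 1.5-fold, although none of the intervals reached 0, and the value in H2A.ZAP3 was −0.62, past the threshold, once the median change of all genes tested was subtracted.

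*Notch3* therefore made up 46.7% to 51.8% of the summed receptor RPKM at D0 and 61.2% to 68.2% at D3. Its ratio to *Notch1* was 1.71 to 2.12 at D0 and 3.59 to 4.80 at D3. *Notch2* (chromosome 3, 97817461 to 97954290, + strand), a close relative of *Notch1*, was the steadiest of the 10 genes, at 5.95, 5.73 and 5.50 RPKM at D0 and 6.00, 6.01 and 5.01 RPKM at D3, so that its highest library was 1.20 times its lowest. *Notch4* (chromosome 17, 34701240 to 34725488, + strand), a receptor known mainly from endothelium, was the lowest receptor in every library, at 2.67, 3.26 and 1.94 RPKM at D0 and 2.23, 1.75 and 1.45 RPKM at D3. It was lower at D3 in each line and passed the threshold in the library labelled H2A.ZKD, with log2 changes of −0.26 (−0.50 to −0.03), −0.90 (−1.13 to −0.68) and −0.42 (−0.67 to −0.16). Of the 6 endothelial markers, *Emcn* was listed at 0 in 4 libraries and *Cdh5* was at 0.0758 to 0.366 RPKM except in H2A.ZAP3 EBs, where it was at 1.60 RPKM. *Cdh5* was higher at D3 in each line. *Cd34* was lower at D3 in each line, at 3.11, 2.61 and 3.69 RPKM at D0 and 1.11, 0.662 and 3.18 RPKM at D3. *Tie1* and *Tek* were lower at D3 in H2A.ZWT and the library labelled H2A.ZKD and higher in H2A.ZAP3. The summed endothelial level was 11.2 to 17.9 RPKM at D0 and 12.0 to 17.2 RPKM at D3, most of it *Pecam1*, which ESCs also express, and its part in the *Notch4* values was not tested.

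*Dll1* (chromosome 17, 15504318 to 15512787, − strand) encodes a Delta-like ligand that activates Notch on neighbouring cells and is needed for somite and neural patterning. Its highest library was 4.24 times its lowest, the largest such ratio of the 10 genes, at 4.03, 4.45 and 3.37 RPKM at D0 and 1.42, 1.25 and 1.05 RPKM at D3. Every D3 value was below every D0 value by more than the lines differed within a day. The log2 changes were −1.50 (−1.85 to −1.17), −1.83 (−2.16 to −1.50) and −1.68 (−2.06 to −1.32), which are falls of 2.83-fold, 3.56-fold and 3.20-fold. It was the single member past the threshold in all 3 lines, and the 3 intervals overlapped one another. With a pseudocount of 1 RPKM the log2 changes were −1.05, −1.28 and −1.09.

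*Jag1* (chromosome 2, 136907194 to 136942067, − strand), which encodes a Jagged-family ligand, was at 5.33, 4.55 and 3.55 RPKM at D0 and 2.39, 2.42 and 2.47 RPKM at D3. The 3 D3 values lay close together, whereas the D0 values were spread more widely, with H2A.ZAP3 the lowest. The log2 changes from D0 to D3 were −1.16 (−1.38 to −0.94), −0.91 (−1.13 to −0.71) and −0.52 (−0.74 to −0.32), the last one under the threshold. The collagen genes among the fibroblast markers (*Col1a1*, *Col1a2*, *Col3a1*) were lower at D3 as well. The summed level of the 7 markers was 26.1, 22.9 and 44.9 RPKM at D0 and 12.7, 7.23 and 9.35 RPKM at D3. At D0 it was thus highest in H2A.ZAP3, where *Jag1* was lowest. *Col1a2* was at 11.8 to 22.5 RPKM at D0 and 0.591 to 2.36 RPKM at D3. *Thy1* was at most at 2.42 RPKM at D0 and at least at 3.56 RPKM at D3, and *Postn* and *Lum* were at 0.333 RPKM or less in every library. In bulk RNA fewer cells of a type and less RNA per cell cannot be told apart, and the part of fibroblasts in the *Jag1* and other D0 levels was not tested.

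*Dll3* (chromosome 7, 29078574 to 29086804, − strand) encodes a divergent Delta-like protein that acts within the cell and does not activate Notch on a neighbour. It did not follow *Dll1*, at 1.87, 3.15 and 1.51 RPKM at D0 and 2.77, 2.17 and 1.62 RPKM at D3. Its highest value was in the library labelled H2A.ZKD at D0, and the days overlapped. The log2 changes were 0.57 (0.17 to 0.97), −0.54 (−0.89 to −0.20) and 0.10 (−0.31 to 0.53), upward in H2A.ZWT and downward in the library labelled H2A.ZKD, and all 3 were within 1.5-fold. With 86 to 152 estimated reads in a library, *Dll3* had wide intervals. The 7 streak and mesoderm markers summed to 2.41 to 2.80 RPKM at D0 and 3.58 to 4.18 RPKM at D3. The highest of them in every library was *Eomes*, at 1.07, 1.33 and 1.14 RPKM at D0 and 1.86, 2.39 and 1.72 RPKM at D3, without overlap between the days, while *Kdr* (0.142 to 1.36 RPKM) and *Tbx6* (0.301 to 0.554 RPKM) overlapped between the days and *Msgn1* was listed at 0 in all 6 libraries. The part of such cells in the Delta gene levels was not tested. The summed neural markers were at 12.1 to 16.7 RPKM at D0 and 12.9 to 23.7 RPKM at D3.

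*Rbpj* (chromosome 5, 53947018 to 54048684, + strand), the factor through which all 4 receptors act on DNA, was at 115, 96.5 and 112 RPKM at D0 and 63.4, 73.2 and 73.7 RPKM at D3. All 3 D0 values were above all 3 D3 values. The log2 changes were −0.86 (−0.90 to −0.81), −0.40 (−0.44 to −0.36) and −0.61 (−0.65 to −0.57), lowest in H2A.ZWT and within the threshold in the library labelled H2A.ZKD, and these 3 intervals did not overlap. The narrow intervals reflect 7039 to 17548 estimated reads per library and say nothing about differences between cultures. *Rbpj* has processed pseudogenes in the mouse genome that are near copies of its transcript, so the level of *Rbpj* is uncertain to the extent that reads were shared among them.

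Because RBPJ binds DNA at TGGGAA, the promoter windows of the Notch pathway genes were searched for these letters on both strands. RefSeq windows of 300 bases, from 250 before to 50 after a start site (GRCm38.p6), were matched for 8 of the 10 genes, and *Hes1* and *Hey1* were not matched. *Rbpj* alone of these 8 genes held the letters. Of 32851 windows of that length 25.6% hold them, so matches were not more frequent among the Notch pathway genes. *Dll1*, *Jag1*, *Notch1* and *Notch4*, which were also lower at D3 in every line, held none. The 2 matches of *Rbpj* are shown because it was the only gene with any. The first starts 149 bases before the annotated start, on the gene's strand (chr5:53590185-53590214), and the second lies 65 bases before it on the other strand (chr5:53590269-53590298). The same second match lies 205 bases before a second annotated start of *Rbpj*. Capitals mark TGGGAA or its reverse complement TTCCCA, both runs are written on the + strand, and a match is a description of the letters and not a bound site.
Rbpj first match: aatgaaaaaggcTGGGAAcccgcggcgagc
Rbpj second match: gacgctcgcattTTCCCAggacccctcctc

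The same windows differed in CpG dinucleotides, from 41 in *Notch2* and 22 to 28 in *Notch1*, *Jag1*, *Notch3*, both windows of *Rbpj* and 1 of the 2 windows of *Dll1* to 15 in the other *Dll1* window, 11 in *Dll3* and 5 in *Notch4*. The median over all windows was 7.

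*Hes1* (chromosome 16, 30065443 to 30067882, + strand), a repressor that oscillates in ESCs and holds back differentiation genes, was at 44.5, 38.8 and 46.7 RPKM at D0 and 36.3, 33.8 and 32.3 RPKM at D3. It was lower at D3 in each line, by log2 changes of −0.29 (−0.41 to −0.17), −0.20 (−0.32 to −0.08) and −0.53 (−0.64 to −0.42), and none of them passed 1.5-fold. *Hey1* (chromosome 3, 8663359 to 8667038, − strand), a related repressor, was at 2.04, 1.54 and 0.948 RPKM at D0 and 2.07, 2.22 and 2.41 RPKM at D3. The D3 values lay close together, and the H2A.ZAP3 library at D0 was the lowest of all. The log2 changes were 0.02 (−0.43 to 0.47), 0.53 (0.07 to 0.99) and 1.35 (0.87 to 1.82), so that the threshold was passed in H2A.ZAP3. The values of the 2 targets had opposite signs in each line, although that of *Hey1* in H2A.ZWT was near 0, and after division of each library by its median *Hey1* overlapped between the days.

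**Figure D2:**
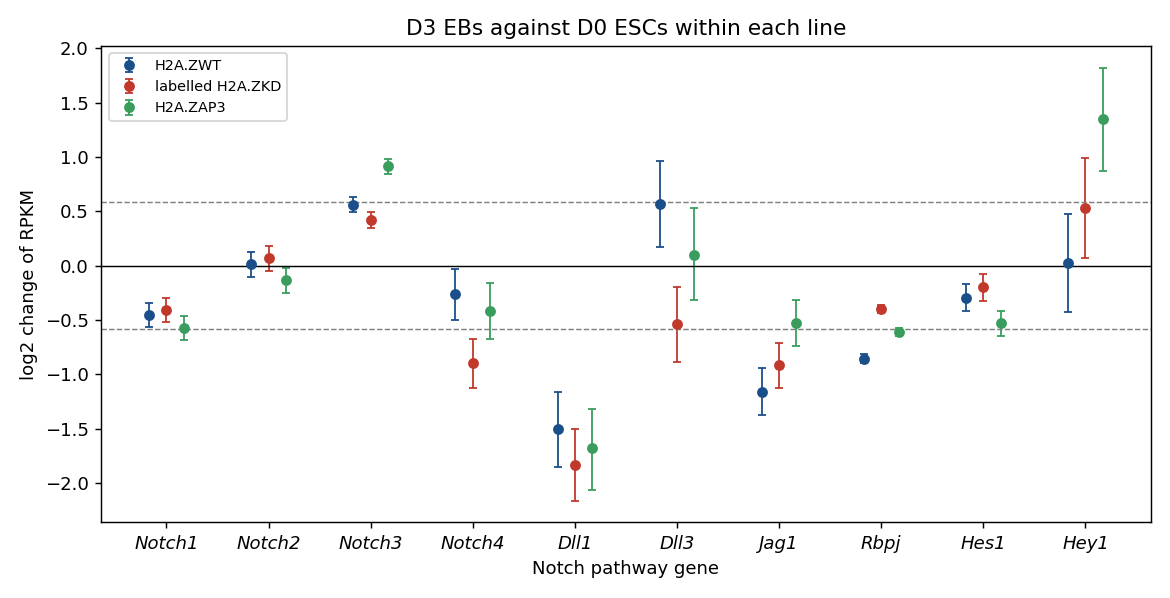
Log2 change of RPKM from D0 to D3 for the 10 Notch pathway genes in each line, with 95% counting intervals as bars and the 1.5-fold threshold (0.58) as dashed lines. *Dll1* lies between −1.50 and −1.83 in all 3 lines, *Notch3* lies above 0 in all 3, and *Dll3* lies on both sides of 0.

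*Dll1*, the member with the largest ratio of highest to lowest library, was set against all 11842 genes tested by the distance between mean-centred log2(RPKM + 1) profiles over the 6 libraries. The 3 nearest were *Fzd5* (distance 0.21), *Fry* (0.27) and *Pgam2* (0.33). *Fzd5*, a receptor of the Wnt pathway, was at 20.6, 19.2 and 15.0 RPKM at D0 and 8.73, 8.37 and 7.53 RPKM at D3. A profile of 6 libraries is short, and these distances carry no test.

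The comparison of H2A.ZAP3 with H2A.ZWT sets the line with the acidic patch mutant beside the line with wild-type H2A.Z. With 1 library per condition, differences of line, culture and library cannot be told apart from those of the mutant. At D0, 2 of the 10 Notch pathway genes were lower past the threshold (*Hey1* and *Jag1*) and none was higher, where 5.49% of all genes tested were lower and 6.8% higher. *Hey1* was at 0.948 RPKM against 2.04 RPKM, a log2 change of −1.11 (−1.62 to −0.61) on 59 and 80 estimated reads. *Jag1* was at 3.55 against 5.33 RPKM, a log2 change of −0.59 (−0.76 to −0.41), just past the threshold, and at −0.57, under it, with a pseudocount of 0.1 RPKM. Among the receptors the values were −0.49 (−0.57 to −0.42) for *Notch3*, −0.46 (−0.69 to −0.24) for *Notch4*, −0.19 (−0.28 to −0.09) for *Notch1* and −0.11 (−0.22 to −0.0016) for *Notch2*. All but *Hes1* were below H2A.ZWT, which is 9 of 10, and 49.7% of all genes tested were below it. The median over the 10 genes was −0.28, beside 0.00 over all genes tested. *Rbpj* and *Hes1* were near H2A.ZWT, at −0.03 (−0.06 to 0.01) and 0.07 (−0.04 to 0.18). Fibroblast markers summed to 44.9 RPKM in this H2A.ZAP3 library and 26.1 RPKM in H2A.ZWT, and endoderm markers to 27.7 and 8.08 RPKM, and their part in these differences was not tested.

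At D3, 2 genes were again lower in H2A.ZAP3 than in H2A.ZWT and none was higher, where 5.21% of all genes were lower and 4.05% higher, but the pair was *Dll3* and *Notch4*. *Dll3* was at 1.62 RPKM against 2.77 RPKM, a log2 change of −0.77 (−1.18 to −0.38). *Notch4* was at 1.45 against 2.23 RPKM, or −0.61 (−0.88 to −0.34), just past the threshold. With a pseudocount of 0.1 RPKM *Notch4* was at −0.58 and under it, and with 1 RPKM both genes were, at −0.40 for *Notch4* and −0.52 for *Dll3*, as they were under a 2-fold threshold. Both genes had also been below H2A.ZWT at D0, at −0.31 (−0.74 to 0.10) and −0.46 (−0.69 to −0.24), within the threshold. *Jag1* and *Hey1*, the pair that was lower at D0, were at 0.05 (−0.20 to 0.29) and 0.22 (−0.21 to 0.63) at D3. The other receptors were at −0.30 (−0.42 to −0.18) for *Notch1*, −0.26 (−0.38 to −0.14) for *Notch2* and −0.14 (−0.20 to −0.08) for *Notch3*. *Dll1* was at −0.44 (−0.88 to 0.01), and *Rbpj* was above H2A.ZWT at 0.22 (0.17 to 0.26). Of the 10 genes 7 were below H2A.ZWT, beside 50.5% of all genes tested, and their median was −0.21, beside 0.00 over all genes. Endoderm markers at this day summed to 37.1 RPKM in H2A.ZAP3 and 35.9 RPKM in H2A.ZWT, and endothelial markers to 17.2 and 17.0 RPKM. In the same order neural markers summed to 23.7 and 18.1 RPKM, epiblast markers to 138 and 108 RPKM, and fibroblast markers to 9.35 and 12.7 RPKM. Among single markers *Cdh5* was at 1.60 and 0.248 RPKM, *Cd34* at 3.18 and 1.11 RPKM, *Kdr* at 1.36 and 0.142 RPKM and *Pecam1* at 10.1 and 14.2 RPKM. The part of such cells in these differences was not tested.

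**Figure D3:**
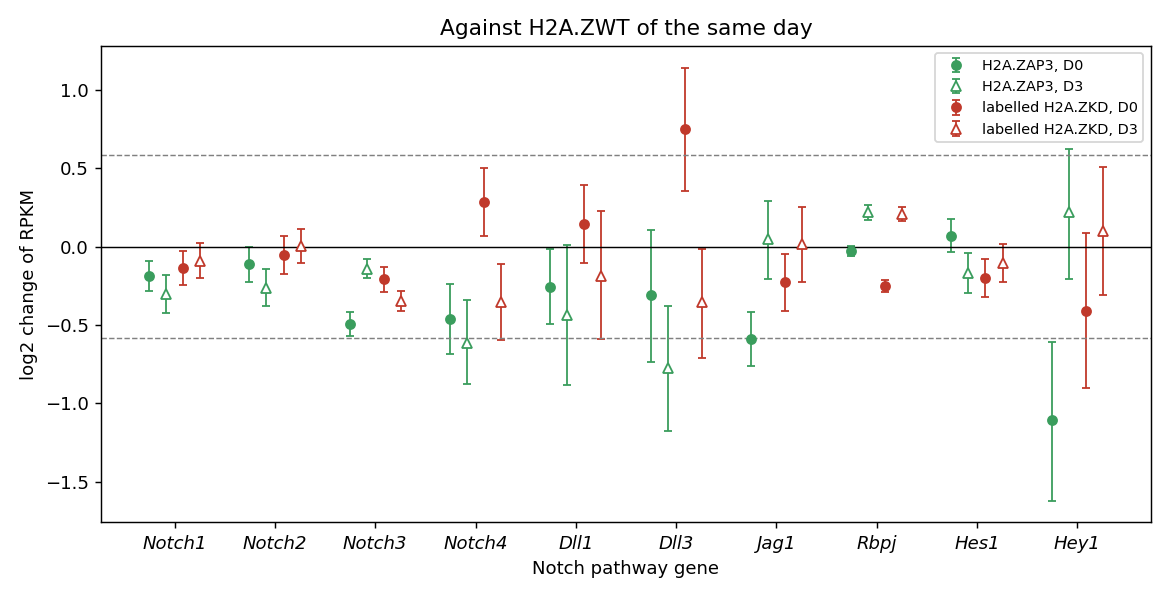
Log2 change of RPKM against H2A.ZWT of the same day for the 10 Notch pathway genes, in H2A.ZAP3 (green) and the library labelled H2A.ZKD (red), with filled circles for D0, open triangles for D3, 95% counting intervals as bars and the 1.5-fold threshold (0.58) as dashed lines. *Hey1* in H2A.ZAP3 lies at −1.11 at D0 and 0.22 at D3, and *Dll3* in the library labelled H2A.ZKD lies at 0.75 at D0 and −0.35 at D3.

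The library labelled H2A.ZKD was compared with the same H2A.ZWT libraries. At D0 *Dll3* alone passed the threshold, upward, at 3.15 RPKM against 1.87 RPKM, a log2 change of 0.75 (0.36 to 1.14), which did not pass a 2-fold threshold or, with a pseudocount of 1 RPKM, the 1.5-fold one. Of all genes tested, 2.94% were higher and 4.02% lower. *Notch4* was at 0.28 (0.07 to 0.50) and *Dll1* at 0.14 (−0.10 to 0.39), and the other 7 genes were below H2A.ZWT, among them *Hey1* (−0.41, −0.90 to 0.09), *Rbpj* (−0.25, −0.29 to −0.21), *Jag1* (−0.23, −0.41 to −0.05) and *Notch3* (−0.21, −0.29 to −0.13). The median was −0.17 over the 10 genes and −0.03 over all genes tested, 55.3% of which were below H2A.ZWT. At D3 none of the 10 genes passed the threshold, where 3.23% of all genes were higher and 4.53% lower. The lowest values were −0.35 each, for *Dll3*, *Notch4* and *Notch3*, and the highest was 0.21 (0.16 to 0.25) for *Rbpj*. The median was −0.10, beside −0.03 over all genes tested, and 6 of the 10 genes and 54.8% of all genes were below H2A.ZWT. The 2 comparisons share the H2A.ZWT library of each day, so their values are not independent.

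H2A.ZAP3 was also set directly against the library labelled H2A.ZKD, with the count chosen after the data were seen. At D0, 3 of the 10 genes were lower past the threshold and none was higher, where 6.13% of all genes tested were lower and 10.5% higher. The 3 were *Dll3* (−1.06, −1.43 to −0.70), *Notch4* (−0.75, −0.96 to −0.54) and *Hey1* (−0.70, −1.24 to −0.17). With a pseudocount of 1 RPKM or a 2-fold threshold the count was 1. Endoderm markers summed to 27.7 RPKM in H2A.ZAP3 and 12.3 RPKM in the library labelled H2A.ZKD at D0, and fibroblast markers to 44.9 and 22.9 RPKM, and their part in these differences was not tested. The other values were −0.40 (−0.63 to −0.17) for *Dll1*, −0.36 (−0.54 to −0.18) for *Jag1*, −0.29 (−0.37 to −0.21) for *Notch3*, 0.27 (0.16 to 0.38) for *Hes1* and 0.22 (0.19 to 0.26) for *Rbpj*, while the intervals of *Notch1* (−0.05, −0.15 to 0.05) and *Notch2* (−0.06, −0.17 to 0.05) spanned 0. At D3 none passed the threshold, where 5.07% of all genes were lower and 5.49% higher. The D3 values were −0.42 (−0.82 to −0.01) for *Dll3*, −0.26 (−0.53 to 0.01) for *Notch4* and 0.12 (−0.28 to 0.50) for *Hey1*, the 3 genes that were lower at D0. *Notch1* (−0.21, −0.33 to −0.09) and *Notch2* (−0.26, −0.38 to −0.15) were further below 0 than at D0, and *Notch3* (0.21, 0.14 to 0.27) was on the other side of 0. The remaining values were −0.25 (−0.70 to 0.18) for *Dll1*, 0.03 (−0.21 to 0.26) for *Jag1*, −0.06 (−0.19 to 0.06) for *Hes1* and 0.01 (−0.03 to 0.05) for *Rbpj*.

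The rest of the pathway was described from a list of 51 further genes, of which 50 were found and 37 were tested. The 13 under a mean of 1 RPKM include 6 of the 7 other Hes and Hey genes, with *Hes5*, a main target in neural progenitors, at 0.191 to 0.482 RPKM, and the endothelial ligand *Dll4* at 0.0180 to 0.129 RPKM. *Jag2*, a second Jagged ligand, was at 12.5, 13.0 and 12.9 RPKM at D0 and 13.9, 12.7 and 10.4 RPKM at D3, above *Jag1* in every library and within 1.5-fold in every comparison made. From D0 to D3, 8 of the 37 genes rose and none fell in H2A.ZWT, 3 rose and 2 fell in the library labelled H2A.ZKD, and 2 rose and 1 fell in H2A.ZAP3. Over all genes tested 11.4% rose and 9.53% fell in H2A.ZWT, 11.5% and 8.86% in the library labelled H2A.ZKD and 10.8% and 11.5% in H2A.ZAP3, so that the share of the 37 genes that rose was above that of all genes in H2A.ZWT and below it in the other 2 lines, and the share that fell was below it in all 3. The medians of the 37 genes were 0.16, −0.03 and −0.12 in the same order, and those of the 10 Notch pathway genes were −0.28, −0.40 and −0.47.

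The 6 largest rises in H2A.ZWT were those of *Hes6*, *Dtx1*, *Dtx3*, *Dtx4*, *Psenen* and *Furin*. *Hes6*, which encodes an antagonist of HES1, was at 22.3, 29.4 and 25.7 RPKM at D0 and 48.5, 38.2 and 49.7 RPKM at D3. Its log2 changes were 1.12 (0.98 to 1.26), 0.38 (0.26 to 0.50) and 0.95 (0.84 to 1.06). *Dtx1*, a Deltex gene whose product modulates receptor traffic, was at 5.70, 6.36 and 7.43 RPKM at D0 and 12.2, 8.14 and 8.17 RPKM at D3. It rose in H2A.ZWT (1.10, 0.93 to 1.27) and was at 0.36 (0.19 to 0.53) and 0.14 (−0.01 to 0.28) in the other lines. Its relative *Dtx3* rose by 0.93 (0.78 to 1.07) in H2A.ZWT and 0.60 (0.46 to 0.75) in the library labelled H2A.ZKD, and was at 0.33 (0.19 to 0.46) in H2A.ZAP3, and *Dtx4* rose in H2A.ZWT (0.92, 0.64 to 1.21). *Fhl1*, which has an isoform that binds RBPJ as a corepressor, rose in all 3 lines, by 0.72 (0.57 to 0.87), 1.71 (1.56 to 1.87) and 0.77 (0.65 to 0.90). The table gives no isoforms, and the gene is also known from muscle. *Psenen*, a subunit of γ-secretase, rose in H2A.ZWT (0.84, 0.61 to 1.06).

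*L3mbtl3*, which encodes a corepressor of RBPJ, rose in H2A.ZWT (0.71, 0.43 to 0.99) and the library labelled H2A.ZKD (1.26, 1.00 to 1.53), and *Furin*, the protease that matures Notch receptors, rose in H2A.ZWT (0.77, 0.66 to 0.88). The falls were in *Mfng* (−1.13, −1.49 to −0.78), a Fringe glycosyltransferase, and *Spen* (−0.76, −0.84 to −0.68), a corepressor of RBPJ, in the library labelled H2A.ZKD, and in *Mib2* (−1.13, −1.27 to −0.98), a ubiquitin ligase of Notch ligands, in H2A.ZAP3. Over the 3 lines together 9 of the 37 genes were higher and 6 lower at D3 with no overlap between the days, which is near the 19% and 13.7% of all genes tested. For description, those that were higher included *Hes6*, *Dtx1*, *Dtx3*, *Fhl1* and 3 subunits of γ-secretase (*Ncstn*, *Aph1a*, *Psenen*), and those that were lower included the coactivator *Ep300* and the corepressors *Ncor1* and *Kdm5a*, together with *Nrarp*, a Notch target that feeds back on the receptor.

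**Figure D4:**
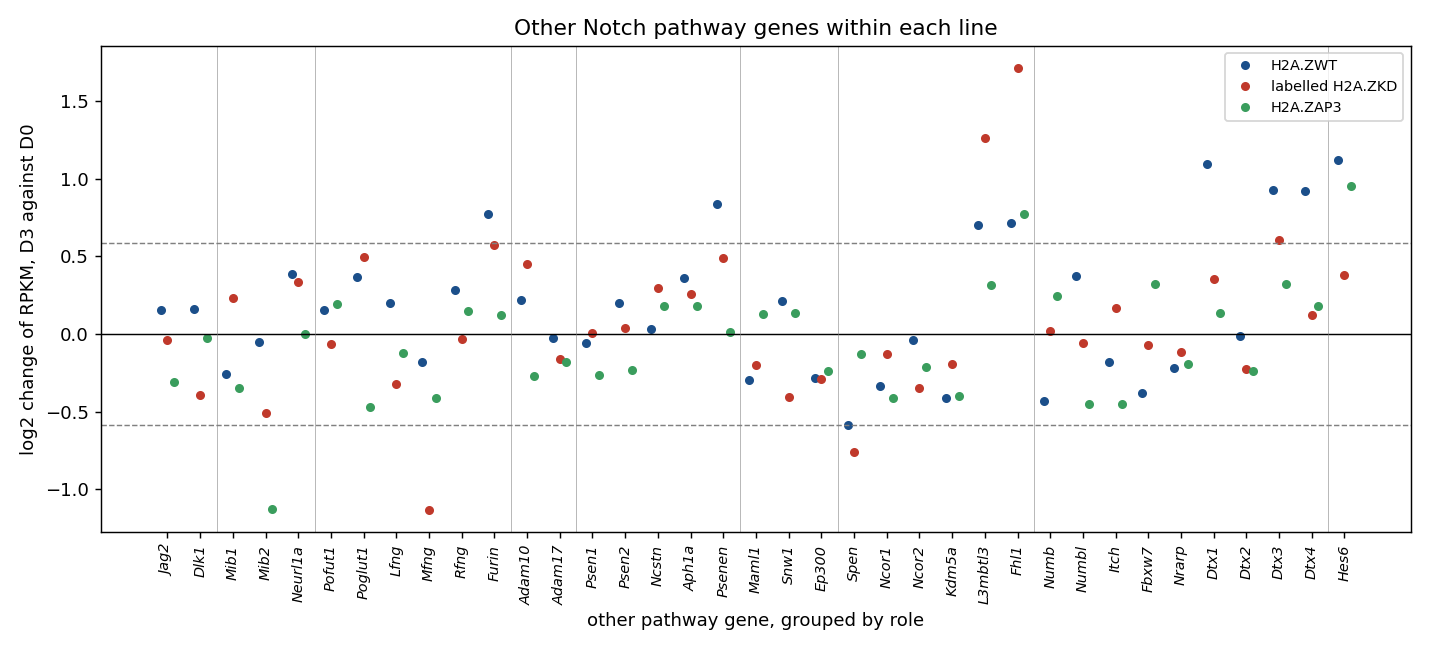
Log2 change of RPKM from D0 to D3 for the 37 other Notch pathway genes tested, grouped by role, with 1 point per line and the 1.5-fold threshold (0.58) as dashed lines. *Fhl1* lies above the threshold in all 3 lines, and *Hes6*, *Dtx1* and *Dtx3* lie above 0 in all 3.

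Against H2A.ZWT at D0, H2A.ZAP3 was higher past the threshold for 3 of the 37 genes and lower for 1, where 6.8% of all genes tested were higher and 5.49% lower, so that these counts are near the background. The 3 were *Poglut1* (log2 change 0.71, 0.61 to 0.82) and *Lfng* (0.79, 0.31 to 1.33), glycosyltransferases that modify the receptor, and *Dtx4* (0.67, 0.40 to 0.95), and the 1 was *Spen*, at 6.92 against 12.8 RPKM (−0.88, −0.96 to −0.80). At D3, where 4.05% of all genes were higher and 5.21% lower, *Mib2* alone passed, downward, at 6.92 against 13.1 RPKM (−0.92, −1.08 to −0.76). The library labelled H2A.ZKD had none of the 37 past the threshold at D0, where 2.94% of all genes were higher and 4.02% lower, and 4 lower and none higher at D3, where 4.53% were lower and 3.23% higher. The 4 were *Dlk1* (−0.65, −1.06 to −0.25), *Mib2* (−0.60, −0.73 to −0.46), *Lfng* (−0.59, −1.17 to −0.03) and *Numbl* (−0.59, −0.67 to −0.50), of which the last 3 were just past it. The median log2 change of the 37 genes in H2A.ZAP3 was 0.16 at D0 and −0.12 at D3, where that of the 10 Notch pathway genes was −0.28 and −0.21.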

How the data were processed

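Poly(A)-selected RNA of 6 samples was sequenced from TruSeq libraries. Per the labels and the study's methods, the authors aligned the reads in single-end mode to mm9 (TopHat, Bowtie 0.12.7) and deposited RPKM values that Cufflinks 1.3.0 computed per gene. The log2 ratios between lines in the same table were not used. Columns were matched to samples by name, and symbols to genes by the table's own names. Gene starts were raised by 1 from the table's count from 0. Log2 ratios used a pseudocount of 0.001 RPKM, genes needed a mean of 1 RPKM over the 6 libraries, and 1.5-fold was the threshold. Relative depth was taken from the most frequent ratio of values under 0.3 RPKM, and absolute depth from steps of whole reads on 3696 genes with 1 transcript in GENCODE NCBIM37. With 200 bases taken off each length the H2A.ZWT D0 estimate was 19.5 M in place of 17.7 M. Reads per gene were estimated from the longest annotated transcript. The libraries had no molecular identifiers, so reads are not independent molecules, which the intervals ignore. The scripts were tested on simulated data. The members, lists and rules for named genes (all 10 members, and other pathway genes past the threshold with the largest changes) were chosen with earlier results of these data known. The other pathway list and the marker lists (ESC, epiblast, streak and mesoderm, endoderm, neural, endothelial, fibroblast) serve as description. The alternatives tried were other pseudocounts, filters, a 2-fold threshold, centring and summing of entries. Python 3.11.15, scipy 1.17.1, pandas 2.3.3, numpy 2.4.6 and, for the plots, matplotlib 3.10.9 were used.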

Additional observations from a re-analysis of the deposited data

Results flagged for a closer look

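5 results had opposite directions under the same contrast with both counting intervals clear of 0. Each rests on 1 library per condition, and the difference itself was not tested. *Dll3* had a log2 change from D0 to D3 of 0.57 in H2A.ZWT and −0.54 in the library labelled H2A.ZKD. The same gene was at 0.75 in the library labelled H2A.ZKD against H2A.ZWT at D0 and at −0.35 at D3, which restates the same 4 libraries. *Notch4* in the library labelled H2A.ZKD against H2A.ZWT was at 0.28 at D0 and −0.35 at D3. *Rbpj* in the same comparison was at −0.25 at D0 and 0.21 at D3, both within 1.5-fold. *Notch3* in H2A.ZAP3 against the library labelled H2A.ZKD was at −0.29 at D0 and 0.21 at D3, again within 1.5-fold. *H2afz* was not lower under the H2A.ZKD label at D0.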

How the results depend on the processing

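With 1 library per condition, leaving out a library was not possible. Of the log2 changes of single genes recomputed under the alternatives, 260 moved by less than their counting error and 10 by more, and no called change turned its sign. Of the 10, 9 were changes from D0 to D3, with a pseudocount of 1 RPKM (*Dll1* in all 3 lines, *Jag1* in H2A.ZWT and the library labelled H2A.ZKD, *Notch4* in the latter, *Hey1* in H2A.ZAP3) or, for *Rbpj* in the latter 2 lines, with each pair centred on its median. The other was *Notch4* in H2A.ZAP3 against the library labelled H2A.ZKD at D0 (−0.53 with a pseudocount of 1 RPKM). The counts of changed genes rest on few genes near the threshold. For H2A.ZAP3 against H2A.ZWT the count of 2 became 1 at each day with a pseudocount of 0.1 RPKM, since *Jag1* (−0.57) and *Notch4* (−0.58) were then just short of it. With a pseudocount of 1 RPKM it was 1 at D0 and 0 at D3, and with a 2-fold threshold also 1 and 0. For the library labelled H2A.ZKD at D0 the count of 1 became 0 with either of these 2 settings, and the count of 3 for H2A.ZAP3 against it at D0 became 1. With the 2-fold threshold the counts from D0 to D3 were 2 in H2A.ZWT in place of 3, without *Rbpj*, 1 in the library labelled H2A.ZKD in place of 3, and 2 in H2A.ZAP3 in place of 4. A mean of at least 5 RPKM leaves 5 of the 10 genes, and the counts were then 0 against H2A.ZWT in H2A.ZAP3 at both days and in the library labelled H2A.ZKD at D0, 0 between these 2 lines at D0, and 1, 0 and 2 from D0 to D3 in H2A.ZWT, the library labelled H2A.ZKD and H2A.ZAP3, with 4 genes not overlapping between the days. Dividing each library by its median, added after seeing the data, left 6 of 7 genes without overlap, all but *Hey1*. With each pair centred on its median the count from D0 to D3 in H2A.ZAP3 became 5 in place of 4, since *Notch1* (−0.62) then passed the threshold, and the other counts kept their values. No filter and summed entries could not move a gene here, since each of the 10 genes has 1 entry and passes the filter, and they are left out of these numbers. Depth limits *Dll3*, *Hey1* and, at D3, *Dll1* most, which had 59 to 152 estimated reads in a library.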

Other observations

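Epiblast and endoderm markers also differed between the days. The 4 epiblast markers (*Fgf5*, *Pou3f1*, *Otx2*, *Dnmt3b*) summed to 35.4 to 48.8 RPKM at D0 and 108 to 138 RPKM at D3. The 5 endoderm markers (*Gata4*, *Gata6*, *Sox17*, *Sox7*, *Foxa2*) summed to 8.08, 12.3 and 27.7 RPKM at D0 in H2A.ZWT, the library labelled H2A.ZKD and H2A.ZAP3, and to 35.9, 58.0 and 37.1 RPKM at D3. The H2A.ZAP3 library at D0, which held the lowest *Notch3*, *Dll3* and *Hey1* of the 6, thus also held the highest endoderm and fibroblast sums of the D0 libraries, and whether these go together was not tested.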
